A study of Mus musculus with 2 samples.

Results

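The Crabp1-Twist2-Dcn cells (CTD cells for short) are a small group of cells in a MyoD-KO clone of mouse induced myogenic progenitor cells, a culture of muscle precursors, and are marked by RNA of 3 genes known from connective tissue. A cell belonged to the group when it had at least 1000 genes detected, at most 15% of its UMIs (unique molecular identifiers, each standing for 1 captured RNA molecule) from mitochondrial genes, and at least 3 UMIs per 10000 from Crabp1, Twist2 and Dcn together. It also had to have under 0.5% of its UMIs from the muscle genes Acta1, Actc1, Myh3, Mylpf and Myl1. By this rule 190 of the 5782 kept cells of the MyoD-KO library were members, which is 3.29% (exact Clopper-Pearson 95% interval 2.84% to 3.78%), out of 13100 kept cells in the 2 libraries of the study. They were set against 2531 Pax7-positive progenitors of the same library, which had at least 1 Pax7 UMI, at most 1 Myog UMI, the same muscle limit and under 1 UMI per 10000 of the 3 marker genes. Cells that met the muscle limit and lay between the marker limits numbered 52.

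Mouse embryonic fibroblasts labelled MyoD-KO or MyoD-WT, both under the strain name Myod1tm1Jae, were converted by overexpression of the muscle transcription factor Myf6 in medium with forskolin, RepSox and CHIR99021. Forskolin raises cyclic AMP, RepSox blocks the TGF-β type I receptor, and CHIR99021 inhibits GSK3 and so activates Wnt signalling. Colonies that no longer needed the Myf6 vector were picked, and at passage 4 a single clone of each genotype was profiled by 3′ single-cell RNA sequencing in medium with 5 µM forskolin, 5 µM RepSox, 3 µM CHIR99021 and 10 ng/mL bFGF. Each genotype is therefore 1 clone and 1 library, so no test was possible, no p-value is given, and all intervals cover counting error only. The MyoD-KO library held 7670 barcodes with 282739488 UMIs and the MyoD-WT library 8191 barcodes with 285232252 UMIs. The 190 cells were deeply covered, with a median of 45300.5 UMIs and 6315.5 genes per cell, against 38051 UMIs and 6294 genes in the progenitors. Barcodes found in both libraries numbered 14, and 0 of them belonged to the CTD cells.

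Fibroblasts build and remodel the extracellular matrix of connective tissue, and mesenchymal cells of this kind also release growth factors, cytokines and prostaglandins that act on neighbouring cells. In skeletal muscle, interstitial fibroblasts and their progenitors surround the Pax7-positive satellite cells, the stem cells of the muscle fibre. Conversion of embryonic fibroblasts to muscle precursors replaces the fibroblast programme with one led by Pax7, Myf5, MyoD and myogenin. Crabp1 binds retinoic acid in the cytoplasm, Twist2 is a bHLH transcription factor of mesenchyme that opposes muscle differentiation, and Dcn encodes the collagen-binding proteoglycan decorin.

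The cells were chosen by their summed UMIs of Crabp1, Twist2 and Dcn and of the 5 muscle genes, so the levels of these genes are a description. Crabp1 was at 3468 CPM (counts per 1000000 of the summed UMIs of a group) in the CTD cells and 1.79 CPM in the progenitors, Twist2 at 407 CPM in the CTD cells and 1.20 CPM in progenitors, and Dcn at 427 CPM in the CTD cells and 0.38 CPM in progenitors. All 3 genes had a UMI in 143 of the 190 cells, 34 cells had UMIs of 2 of them, and 13 of 1 only. The summed marker level ran from 3.01 to 147.5 per 10000 UMIs with a median of 26.4, so most cells lay far above the minimum. The 3 cells just inside the limit had 3.01, 3.02 and 3.13 per 10000, and the 3 just outside had 2.87, 2.96 and 2.98.

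The cells stood together on genes that the rule did not use. When the kept MyoD-KO cells were placed by 3000 variable genes without the rule's own genes, an average of 82.9% of the 15 nearest neighbours of a CTD cell were other members (median 100%), and 1 member had none among its neighbours. The average share of member neighbours was 35.6% for the cells between the marker limits, 0.271% for Myog-positive cells and 0.0582% for muscle-rich cells, and 2498 of the 2531 progenitors had no member among their neighbours. Of 14 clusters, cluster 11 held 157 of the 190 members (82.6%) and 22 of the 52 cells between the limits, with 3 progenitors, 3 Myog-positive cells and 5 other cells. Cluster 7 held a further 30 members together with 26 cells between the limits and 270 progenitors. The last 3 members were in clusters 12 and 13. The doublet caller Scrublet marked 9 of the 190 cells (4.74%), against 22 of 2531 progenitors (0.869%) and 144 of all 5782 kept cells (2.49%). Removing the called cells left 181 members.

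The label of a fibroblast holds for some defining genes and fails for others, so the cells are called here by the genes of their rule. Of 20 fibroblast genes, 7 were at least 2-fold higher in the CTD cells than in progenitors with at least 10 CPM in the higher group, 1 was lower, and 8 were under 10 CPM in both groups. Over all 8971 genes that reached 10 CPM in 1 of the 2 groups, 10.3% were higher by this measure and 14.5% lower, the rule's genes left out. Cd34, a sialomucin of fibroblast and vascular progenitors, was at 35.7 CPM in the CTD cells and 2.70 CPM in progenitors. The PDGF receptors Pdgfra and Pdgfrb were at 23.6 and 50.8 CPM in the CTD cells, against 2.02 and 10.2 CPM in progenitors. These receptors, fibronectin (Fn1), Ddr2, Col3a1 and Fbln2 were all on the higher side. The main chains of type I collagen were nearly missing, since Col1a1 was at 5.62 CPM in the CTD cells and 0.32 CPM in progenitors. Col1a2 had 0 UMIs in 9251094 in the CTD cells, which allows up to 0.324 CPM, and 0.91 CPM in progenitors. Lum (7.03 CPM), Thy1 (2.38 CPM), Postn and Dpt (0.32 CPM each), Pi16 (0.22 CPM) and Mfap5 (0 UMIs) were low or at 0 in the CTD cells, although each of them marks fibroblasts of various tissues. The mesenchyme genes Prrx1, Fap and vimentin (Vim) differed less than 2-fold. Prrx1 was at 946 CPM in the CTD cells and 526 CPM in progenitors, and Fap at 77.5 CPM in the CTD cells and 76.5 CPM in progenitors. Vim was at 2427 CPM in the CTD cells and 2186 CPM in progenitors. Other mesenchyme genes, given below, differed more and in both directions, with Cdh11 and Ebf1 higher and Ebf3 lower.

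Markers of other cell types gave no alternative name. The summed level of 7 endothelial markers was 1.95 CPM in the CTD cells and 1.77 CPM in progenitors, and that of 7 immune markers was 1.95 CPM in the CTD cells and 2.25 CPM in progenitors. Epithelial, Schwann or neural crest and pluripotent markers summed to 0.54, 2.49 and 0 CPM in the CTD cells, against 2.99, 4.97 and 0.039 CPM in progenitors. In the bone and cartilage list Runx2, the master factor of osteoblasts, was higher at 145 CPM in the CTD cells and 24.8 CPM in progenitors, while Alpl, a bone phosphatase, was lower at 1.41 CPM in the CTD cells and 10.2 CPM in progenitors. The smooth muscle actin Acta2 was lower in the CTD cells at 44.9 CPM, against 113 CPM in progenitors. The measured Y-linked genes summed to 1.41 CPM in the CTD cells, close to the 1.56 CPM of MyoD-KO progenitors, whereas MyoD-WT progenitors had 188 CPM.

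Across all genes 928 were higher and 1297 lower in the CTD cells than in the progenitors. Of these 2225 calls 41.7% were higher, and with TMM scaling, which discounts a few dominant genes, 1142 were higher and 1041 lower (52.3% higher). The median log2 ratio over 12302 genes was -0.22, or -0.05 after TMM scaling, and list medians below should be read against the first value. Both Spp1 and Slpi weigh on this scale, since together they made up 5.46% of all UMIs of the CTD cells and 0.0713% of those of the progenitors. In the plot of ratio against level both genes stand at the far right. List counts below are out of all genes listed, but only genes that reached 10 CPM in 1 of the groups could be called. Those were 15 of 23 collagens, 14 of 27 cytokine genes, 16 of 30 sarcomere genes and 8 of 22 Wnt genes. Shares of a list are therefore not on the same base as the shares over all 8971 genes. A gene that reached 10 CPM only through the CTD cells could not be called lower. In the same way, a gene that did so only through the progenitors could not be called higher.

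**Figure D1:**
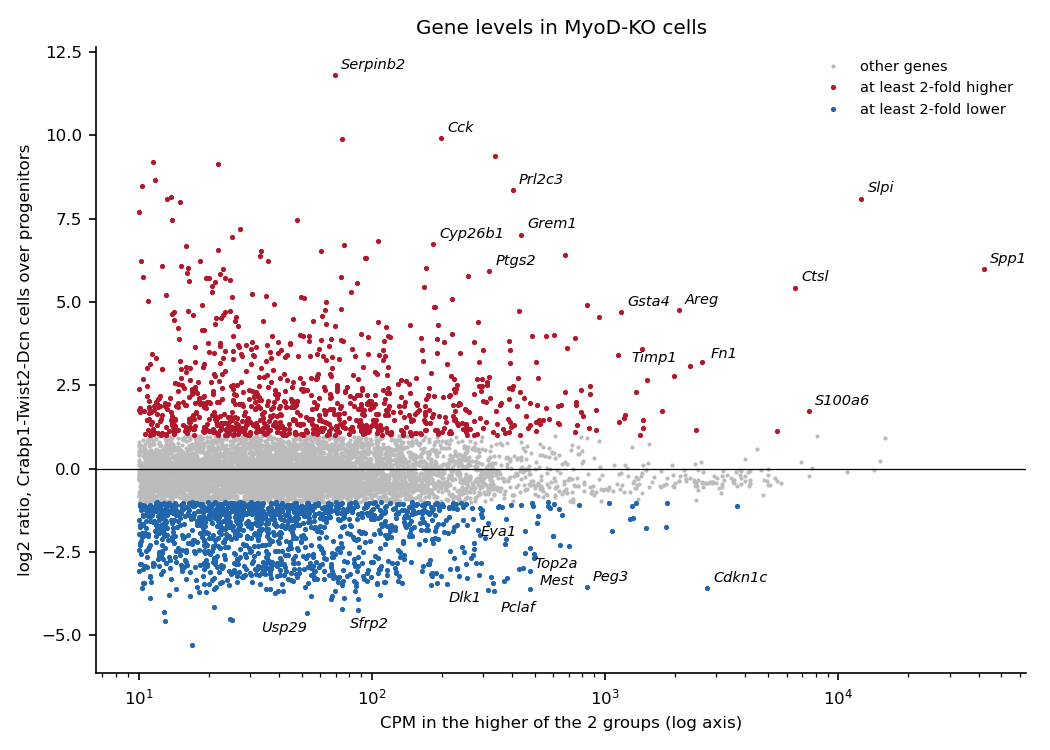
Each point is 1 of the 8971 genes tested, plotted by its CPM in the higher of the 2 groups (log axis) and its log2 ratio of Crabp1-Twist2-Dcn (CTD) cells over Pax7-positive progenitors in the MyoD-KO library; red genes are at least 2-fold higher and blue genes at least 2-fold lower. Spp1 and Slpi combine the highest levels with log2 ratios of 5.98 and 8.11, and the imprinted genes Cdkn1c and Peg3 lie at -3.59 and -3.56.

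The leading secreted products were osteopontin, a protease inhibitor and a lysosomal protease. Spp1 (ENSMUSG00000029304), which encodes the phosphoprotein osteopontin of bone and injured tissue, ran from 1.04 to 1047 UMIs per 10000 over the CTD cells with a median of 409, against 0 to 446 with a median of 0.94 over progenitors. Its summed level was 42047 CPM in the CTD cells and 667 CPM in progenitors, a ratio of 63.0 (62.5 to 63.6). Spp1 thus had a UMI in all 190 cells, while the highest progenitors overlapped with the middle of the group. Slpi (ENSMUSG00000017002), the secretory leukocyte protease inhibitor, ran from 0 to 650 per 10000 with a median of 92.7 in the CTD cells, against 0 to 160 with a median of 0 in progenitors. The sums were 12551 CPM in the CTD cells and 45.5 CPM in progenitors (ratio 276, 268 to 284). After each cell was thinned to 5000 UMIs, Slpi was detected in 93.7% of CTD cells and 76.9% of the cells between the marker limits. It was detected in 5.97% of progenitors and 5.12% of muscle-rich cells. The muscle-rich cells are not a clean background, since Slpi summed to 136 CPM there and 15 of these cells reached the marker minimum. Cathepsin L (Ctsl, ENSMUSG00000021477) had a median of 47.9 per 10000 in the CTD cells and 1.35 in progenitors, and summed to 6511 CPM in the CTD cells and 150 CPM in progenitors (ratio 43.3, 42.6 to 44.1).

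**Figure D2:**
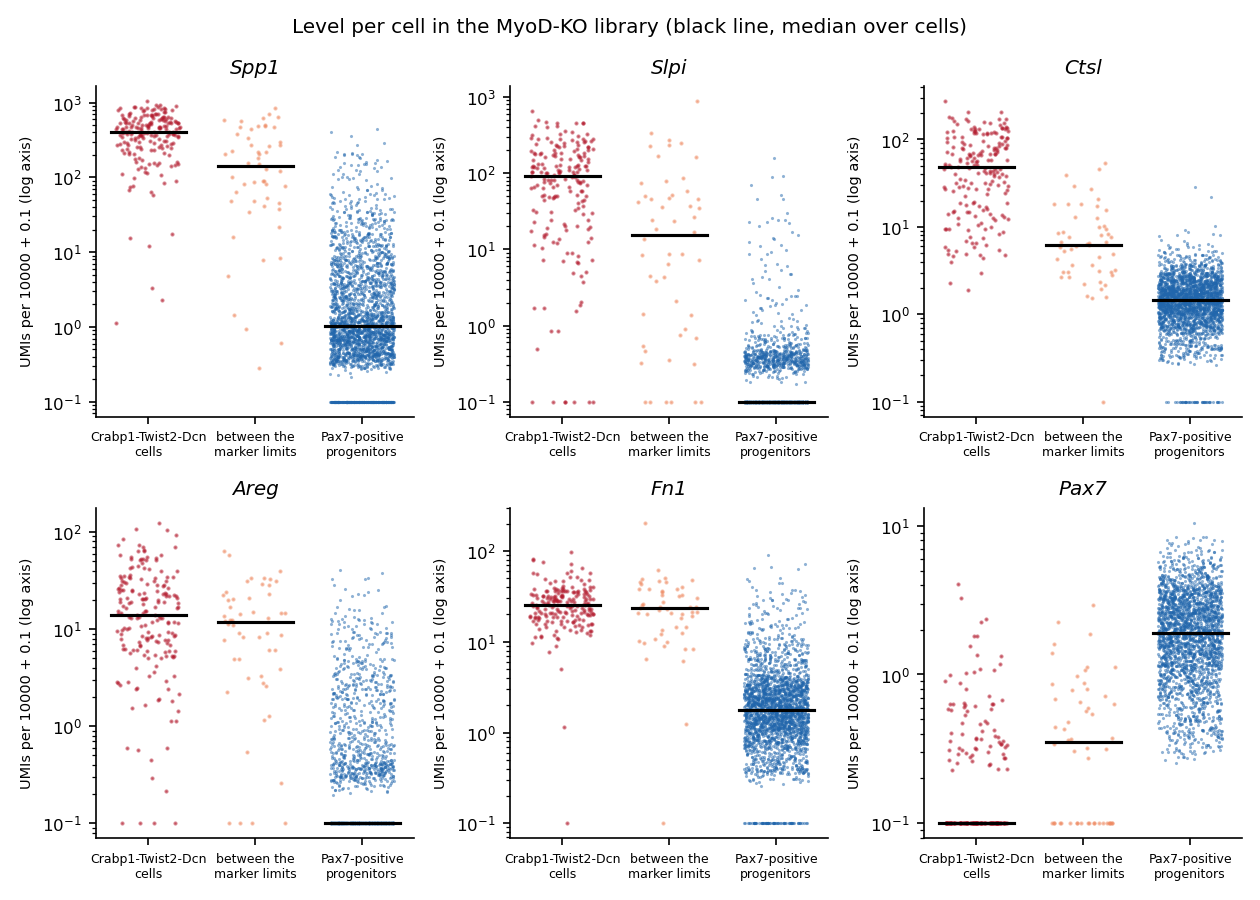
UMIs per 10000 plus 0.1 (log axis) of 6 genes in single MyoD-KO cells, where each point is 1 cell and the black line is the median over the cells of a group. The medians of Spp1, Slpi, Ctsl, Areg and Fn1 are higher in the Crabp1-Twist2-Dcn (CTD) cells than in the Pax7-positive progenitors, and Pax7, which chose the progenitors, is detected in 75 of the 190 Crabp1-Twist2-Dcn cells.

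By ratio the 12 highest genes at 50 CPM or more were Serpinb2, Cck, Rasgrf1, Prl2c2, Prl2c3, Slpi, Grem1, Tafa1, Cyp26b1, Ptgs1, Fbln5 and Gsta2. Serpinb2, an inhibitor of plasminogen activators, was at 69.5 CPM in the CTD cells and had 2 UMIs in all progenitors, a ratio of 3567 with a counting interval of 984 to 29520. It was detected in 37 of the 190 cells, so the sum rests on a minority. The same held for Cck, the gut and brain peptide cholecystokinin, which was at 198 CPM in the CTD cells and 0.20 CPM in progenitors but had a UMI in 26 of 190 cells. Rasgrf1, an exchange factor for Ras that is imprinted in mice, had a UMI in 103 CTD cells and 8 progenitors. The prolactin-family genes Prl2c2 and Prl2c3 encode proliferin, a growth hormone relative of mouse placenta and growing fibroblasts. They were at 338 and 402 CPM in the CTD cells, against 0.51 and 1.23 CPM in progenitors, and because the copies are almost identical the division of reads between them is uncertain. Grem1, an antagonist of bone morphogenetic proteins, had a UMI in 173 of the 190 cells and was at 436 CPM in the CTD cells and 3.34 CPM in progenitors (ratio 130, 117 to 146). Tafa1, a secreted chemokine-like protein, was at 106 CPM in the CTD cells and 0.94 CPM in progenitors. The matrix protein Fbln5, which takes part in elastic fibre assembly, was at 60.7 CPM in the CTD cells and 0.66 CPM in progenitors.

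Promoter sequence was taken for the higher genes from RefSeq windows of GRCm38.p6, a build other than the GRCm39 that the submitters' processing notes name, so its coordinates apply to the older build. The windows were searched on both strands for the letters TGANTCA, with N as any base, and the full cyclic AMP response element TGACGTCA. Neither contains the other. TGANTCA is called the AP-1 letters here, but it is looser than the AP-1 site, which has C or G as its middle base. Of the 12 highest genes 11 had a window, and 3 of these (27.3%) held the AP-1 letters, namely Prl2c3, Serpinb2 and Tafa1, while 0 of the 9 matched among the 12 lowest did. Over all genes with a window 8.97% held the AP-1 letters and 2.03% the response element. A match says only that the letters are present. The 250 bases before the start are shown for Serpinb2 (chr1:107511173-107511422, plus strand) and Prl2c3 (chr13:12800080-12800329, minus strand), the higher genes with AP-1 letters and the largest ratios. Those of the EGF-family gene Areg (chr5:91139349-91139598, plus strand), which hold the response element, are shown as well. Areg is outside the 12 highest genes, and the element was not counted over the EGF family. The matched letters are in capitals.
Serpinb2: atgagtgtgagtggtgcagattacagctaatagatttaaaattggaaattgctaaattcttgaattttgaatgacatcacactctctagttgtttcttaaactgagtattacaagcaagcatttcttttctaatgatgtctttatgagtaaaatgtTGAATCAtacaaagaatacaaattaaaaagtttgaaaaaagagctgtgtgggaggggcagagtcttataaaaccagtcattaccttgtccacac
Prl2c3: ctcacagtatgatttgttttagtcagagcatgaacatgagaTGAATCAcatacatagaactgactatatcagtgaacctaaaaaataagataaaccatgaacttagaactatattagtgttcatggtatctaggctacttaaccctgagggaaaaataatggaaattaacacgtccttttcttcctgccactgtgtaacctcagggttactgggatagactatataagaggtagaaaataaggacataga
Areg: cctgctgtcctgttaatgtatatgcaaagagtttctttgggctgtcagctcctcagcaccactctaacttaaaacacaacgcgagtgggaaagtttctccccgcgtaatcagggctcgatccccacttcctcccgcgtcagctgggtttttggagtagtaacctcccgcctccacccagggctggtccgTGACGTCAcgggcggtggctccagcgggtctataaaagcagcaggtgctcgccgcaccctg
The match lay 94 bases before the start in Serpinb2, 209 in Prl2c3 and 61 in Areg. In Serpinb2 and Prl2c3 the matched letters had A as the middle base, so neither is the AP-1 site in its strict form. The response element was found in 0 of the 13 windows of the 11 matched highest genes and in that of Usp29 among the lowest.

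The growth factors of the EGF family that could be called were higher in the CTD cells. They bind the EGF receptor and its relatives on the same or nearby cells. Of 12 genes of this family only 5 reached 10 CPM in 1 of the groups, and 5 were higher and 0 lower (median log2 ratio 1.78). Ereg, Btc and Nrg1 reached it only through the CTD cells, so they could not have been called lower. Amphiregulin (Areg) ran from 0 to 125 UMIs per 10000 with a median of 14.0 in the CTD cells, against 0 to 40.4 with a median of 0 in progenitors, and summed to 2066 CPM in the CTD cells and 76.8 CPM in progenitors (ratio 26.9, 26.2 to 27.6). Epiregulin (Ereg), one of the genes proposed as a marker of these cells, was at 258 CPM in the CTD cells and 4.66 CPM in progenitors. Betacellulin (Btc) was at 43.3 CPM in the CTD cells and 4.10 CPM in progenitors, and neuregulin 1 (Nrg1) at 21.2 CPM in the CTD cells and 3.11 CPM in progenitors. The receptor Egfr itself was at 175 CPM in the CTD cells and 51.2 CPM in progenitors. Of 18 feedback genes of FGF and MAPK signalling 7 were higher and 1 lower (median 0.88), led by the ERK phosphatases Dusp5 (59.2 CPM in the CTD cells, 4.92 in progenitors) and Dusp6 (117 CPM in the CTD cells and 24.3 CPM in progenitors), while the feedback inhibitor Spry1 was lower at 7.13 CPM in the CTD cells and 18.9 CPM in progenitors.

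Among fibroblast growth factors, a list of 10 genes picked after values had been seen, Fgf7, Fgf1 and Fgf10 were higher and Fgf13 lower. Fgf7, the keratinocyte growth factor that mesenchyme sends to epithelium, was at 93.2 CPM in the CTD cells and 1.16 CPM in progenitors, a ratio of 80.4. Fgf10, its close relative in lung and limb development, was at 36.6 CPM in the CTD cells and 3.22 CPM in progenitors. The list median of 1.63 turned to -1.59 when all other kept MyoD-KO cells were the comparison.

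The cytokine genes that were called were all higher. Of 27 cytokines, chemokines and related genes 14 reached 10 CPM in 1 of the groups. Of these, 12 were higher in the CTD cells and 0 lower, and the list median log2 ratio was 3.08. Il6, Lif, Ccl2 and Ccl7 reached 10 CPM only through the CTD cells, so they could not have been called lower. The alarmin Il33, released from stromal cells on damage, was at 558 CPM in the CTD cells and 35.1 CPM in progenitors (ratio 15.9, 15.2 to 16.6). Il6 was at 53.9 CPM in the CTD cells and 3.40 CPM in progenitors, and its relative Lif, which maintains several stem cells, at 15.9 CPM in the CTD cells and 0.16 CPM in progenitors. The monocyte attractants Ccl2 and Ccl7 were at 222 and 94.4 CPM in the CTD cells, against 6.44 and 1.17 CPM in progenitors. S100a8, a calcium-binding protein best known from neutrophils, was at 61.1 CPM in the CTD cells and 2.56 CPM in progenitors although immune markers were at or near 0.

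Prostaglandin genes, grouped after values had been seen, covered several steps of the route. Of 19 genes 10 reached 10 CPM in 1 of the groups, and 8 were higher and 0 lower (median 3.56). Ptgs1 and Ptgs2 reached it only through the CTD cells, so they could not have been called lower. Pla2g4a, the phospholipase that frees arachidonic acid, was at 273 CPM in the CTD cells and 19.5 CPM in progenitors. The cyclooxygenases Ptgs1 and Ptgs2, which make the common precursor, were at 76.0 and 319 CPM in the CTD cells, against 0.73 and 5.20 CPM in progenitors. Ptges, which makes prostaglandin E2, was at 186 CPM in the CTD cells and 6.43 CPM in progenitors, and the transporter Slco2a1, which takes prostaglandins up, at 73.7 CPM in the CTD cells and 1.36 CPM in progenitors. The receptors Ptgir and Ptgfr were at 21.2 and 25.3 CPM in the CTD cells and 1.05 and 4.45 CPM in progenitors.

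Matrix genes were higher in part. Of 23 collagens 11 were higher and 2 lower (median 1.55), of 35 matrix glycoproteins and proteoglycans 11 were higher and 4 lower (1.74), and of 30 remodelling enzymes and inhibitors 15 were higher and 1 lower (1.70). The 3 main chains of type VI collagen, the beaded collagen around muscle fibres and fibroblasts, were higher: Col6a1, Col6a2 and Col6a3 were at 747, 430 and 1356 CPM in the CTD cells, against 188, 87.1 and 278 CPM in progenitors. Another chain, Col6a6, which is not among the 23 collagens counted, went the other way and was among the 12 lowest genes at 4.43 CPM in the CTD cells and 67.1 CPM in progenitors. The basement membrane chains Col4a1 and Col4a2 were at 573 and 309 CPM in the CTD cells, against 203 and 116 CPM in progenitors. The 2 lower members of the collagen list were Col15a1 and the transmembrane collagen Col25a1.
Fibronectin, the cell-binding glycoprotein of wounds and cultured fibroblasts, had a median of 25.4 UMIs per 10000 in the CTD cells and 1.69 in progenitors, and summed to 2613 CPM in the CTD cells and 285 CPM in progenitors (ratio 9.16, 9.01 to 9.32). Nid1, a linker of basement membranes, was at 488 CPM in the CTD cells and 30.9 CPM in progenitors, and biglycan (Bgn), a relative of decorin, at 113 CPM in the CTD cells and 7.89 CPM in progenitors. The lower glycoproteins were Fbln1, Nid2, Fbn2 and Tnc, with Fbln1 at 14.2 CPM in the CTD cells and 99.1 CPM in progenitors. Timp1, an inhibitor of matrix metalloproteinases, had a UMI in all 190 cells and was at 2315 CPM in the CTD cells and 274 CPM in progenitors (ratio 8.46, 8.31 to 8.61). The stromelysin Mmp3 was at 11.8 CPM in the CTD cells and had 0 UMIs in progenitors, but its 109 UMIs came from 6 of the 190 cells (3.16%).

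**Figure D3:**
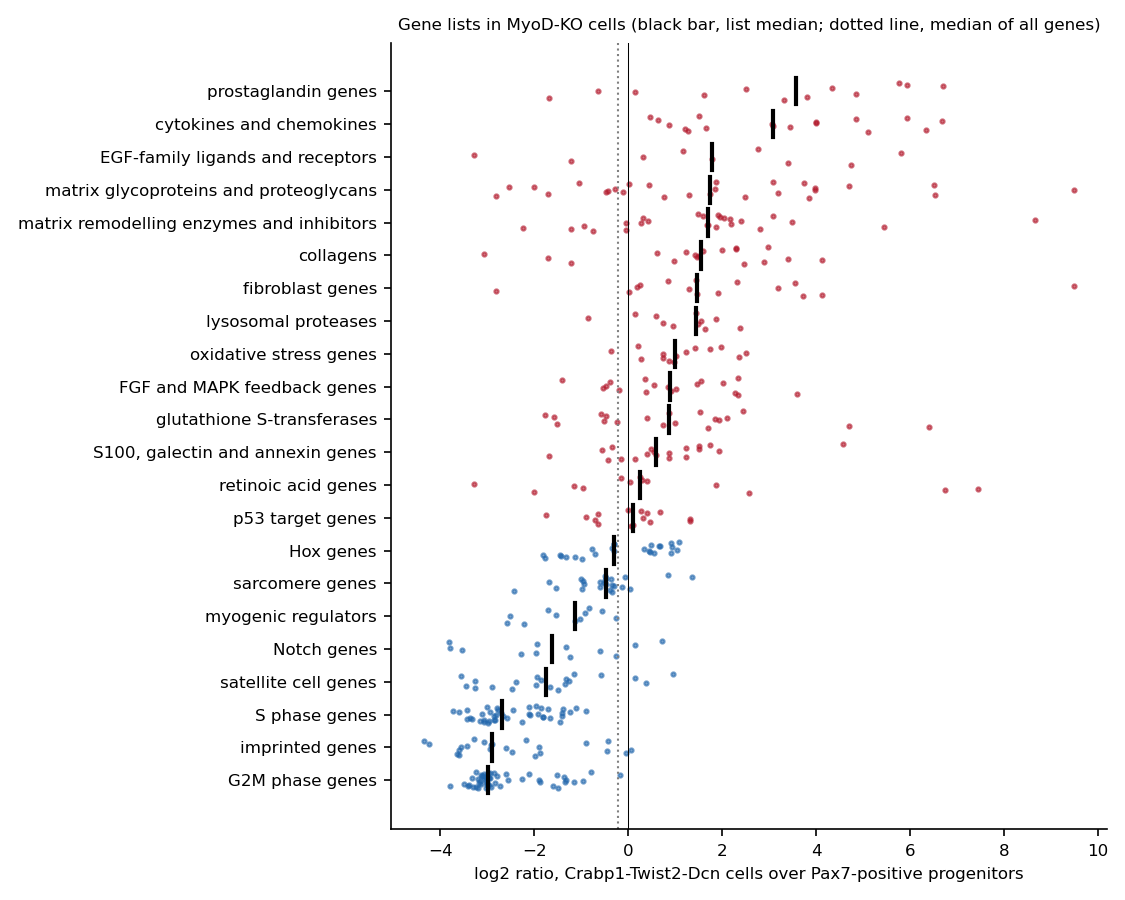
Each point is 1 gene with a mean of at least 1 CPM over the 2 groups, plotted by its log2 ratio of Crabp1-Twist2-Dcn (CTD) cells over Pax7-positive progenitors, in 22 of the gene lists; the black bar is the list median and the dotted line the median of all genes at -0.22. Prostaglandin genes and cytokines have the highest of these medians (3.56 and 3.08), and S phase, imprinted and G2M genes the lowest (-2.68, -2.90 and -2.98).

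Detoxifying and lysosomal genes stood on the higher side. Of 22 glutathione S-transferases, enzymes that couple glutathione to reactive compounds, 6 were higher and 1 lower (median 0.87; list picked after values had been seen). Gsta4 was at 1168 CPM in the CTD cells and 45.1 CPM in progenitors, and Gsta2 at 676 CPM in the CTD cells and 8.0 CPM in progenitors, while Gstm1 was lower at 35.7 CPM in the CTD cells and 102 CPM in progenitors. Of 14 oxidative stress genes 7 were higher and 0 lower (median 1.00), among them the quinone reductase Nqo1 (311 CPM in the CTD cells, 54.6 in progenitors) and the heme oxygenase Hmox1 (112 CPM in the CTD cells and 21.7 CPM in progenitors). Of 13 lysosomal proteases, also picked later and without Ctsl, 4 were higher and 0 lower, and cathepsin B (Ctsb) was at 785 CPM in the CTD cells and 152 CPM in progenitors. Of 12 polyamine genes, a list also picked later, 2 were higher and 0 lower, and the median of -0.16 was close to the -0.22 of all genes. The higher ones, the polyamine-degrading enzymes Smox and Sat1, were at 192 and 604 CPM in the CTD cells, against 9.60 and 37.3 CPM in progenitors. S100a6 and S100a4, calcium-binding proteins that are common in fibroblasts, were at 7499 and 1210 CPM in the CTD cells and 2250 and 423 CPM in progenitors.

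The retinoic acid genes, a list that includes binding proteins, enzymes and receptors, showed no common direction. Beside Crabp1 itself, which the rule used, 3 of 18 were higher and 3 lower, and the list median of 0.25 changed sign in 1 alternative. Cyp26b1, which breaks retinoic acid down, was at 182 CPM in the CTD cells and 1.71 CPM in progenitors (ratio 106, 91.1 to 125), and the synthesising enzyme Aldh1a3 at 14.3 CPM in the CTD cells and 2.42 CPM in progenitors. The receptor Rarg was higher at 42.7 CPM in the CTD cells and 11.7 CPM in progenitors, whereas Rarb was lower at 12.6 CPM in the CTD cells and 28.3 CPM in progenitors. Crabp2, the relative of Crabp1 that carries retinoic acid to the nucleus, was lower at 12.4 CPM in the CTD cells and 49.9 CPM in progenitors.

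BMP and TGF-β genes were split as well, with 8 of 30 higher and 4 lower. Tgfb1 was at 120 CPM in the CTD cells and 7.78 CPM in progenitors, while Tgfb2 was at 92.6 CPM in the CTD cells and 479 CPM in progenitors. Inhba, a subunit of activin, was at 13.8 CPM in the CTD cells and 0.078 CPM in progenitors, and follistatin (Fst), which binds activin, at 59.5 CPM in the CTD cells and 19.3 CPM in progenitors. Of 43 mesenchymal transcription factors 9 were higher and 5 lower, with Ebf1 at 390 CPM in the CTD cells and 33.2 CPM in progenitors and its relative Ebf3 at 8.97 CPM in the CTD cells and 56.0 CPM in progenitors. The medians of the BMP and TGF-β and the mesenchymal factor lists, -0.14 and -0.01, changed sign in 2 and 8 of the alternatives. Of 29 adhesion genes 9 were higher and 1 lower. Cadherin 11 (Cdh11), the cadherin of mesenchyme, was at 203 CPM in the CTD cells and 14.5 CPM in progenitors, and the hyaluronan receptor Cd44 was lower at 79.5 CPM in the CTD cells and 257 CPM in progenitors.

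The early muscle regulator Myf5 was lower in the CTD cells but not at 0, and Pax7 was not at 0 there either. Pax7, which the rule used on the progenitors only, was at 29.8 CPM in the CTD cells and 210 CPM in progenitors. Its difference is given without a call, because each progenitor had to have at least 1 Pax7 UMI. Of the 190 CTD cells 75 (39.5%) had at least 1 Pax7 UMI. Of these 75 cells 50 were in cluster 11, whose members had Pax7 at 10.9 CPM. Whether such UMIs came from the cell itself or from free RNA in the suspension was not tested. At a thinned depth of 5000 UMIs Pax7 was detected in 10.5% of CTD cells, 58.6% of progenitors and 6.73% of muscle-rich cells. Myf5, which commits cells to the muscle lineage, was at 16.1 CPM in the CTD cells and 91.6 CPM in progenitors (5.69-fold lower), and was detected in 60 of the 190 cells. Myod1, the targeted gene, was at 28.2 CPM in the CTD cells, 53.5 CPM in MyoD-KO progenitors and 112 CPM in MyoD-WT progenitors, and since the deleted stretch of the gene is not given in the labels, a 3′ count does not check the knockout. Myf6, the factor used for conversion, was at 2.38 CPM in the CTD cells and 6.89 CPM in progenitors, and vector and gene cannot be told apart in these counts. Myog, the differentiation factor myogenin, was at 20.4 CPM in the CTD cells and 9.81 CPM in progenitors, a ratio of 2.08 that is given without a call because the progenitor rule allowed at most 1 Myog UMI per cell. It had a UMI in 83 of the 190 CTD cells, and was at 504 CPM in the Myog-positive cells.
Of 13 myogenic regulators 0 were higher and 6 lower (median -1.12), and of 22 satellite cell genes 0 were higher and 14 lower (-1.75). Eya1, a transcriptional cofactor upstream of Myf5 and Myod1, was at 59.1 CPM in the CTD cells and 275 CPM in progenitors. Fgfr4, the FGF receptor of myoblasts, was at 19.1 CPM in the CTD cells and 209 CPM in progenitors, Met, the receptor of hepatocyte growth factor, at 5.95 CPM in the CTD cells and 56.5 CPM in progenitors, and M-cadherin (Cdh15) at 39.1 CPM in the CTD cells and 216 CPM in progenitors. Msc, a bHLH repressor found in muscle precursors, was at 2.16 CPM in the CTD cells and 22.8 CPM in progenitors. Of 20 commitment and fusion genes 2 were higher and 5 lower (median -0.57). The higher ones were the acetylcholine receptor subunit Chrna1, at 24.97 CPM in the CTD cells and 8.46 CPM in progenitors, and the junctional adhesion molecule Jam2, at 12.97 CPM in the CTD cells and 3.27 CPM in progenitors. Notch genes, which keep satellite cells undifferentiated, were 0 higher and 5 lower of 15 (median -1.63), with Notch3 at 55.6 CPM in the CTD cells and 212 CPM in progenitors. Sfrp2, a secreted Wnt modulator, was among the 12 lowest genes at 4.00 CPM in the CTD cells and 74.3 CPM in progenitors.

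**Figure D4:**
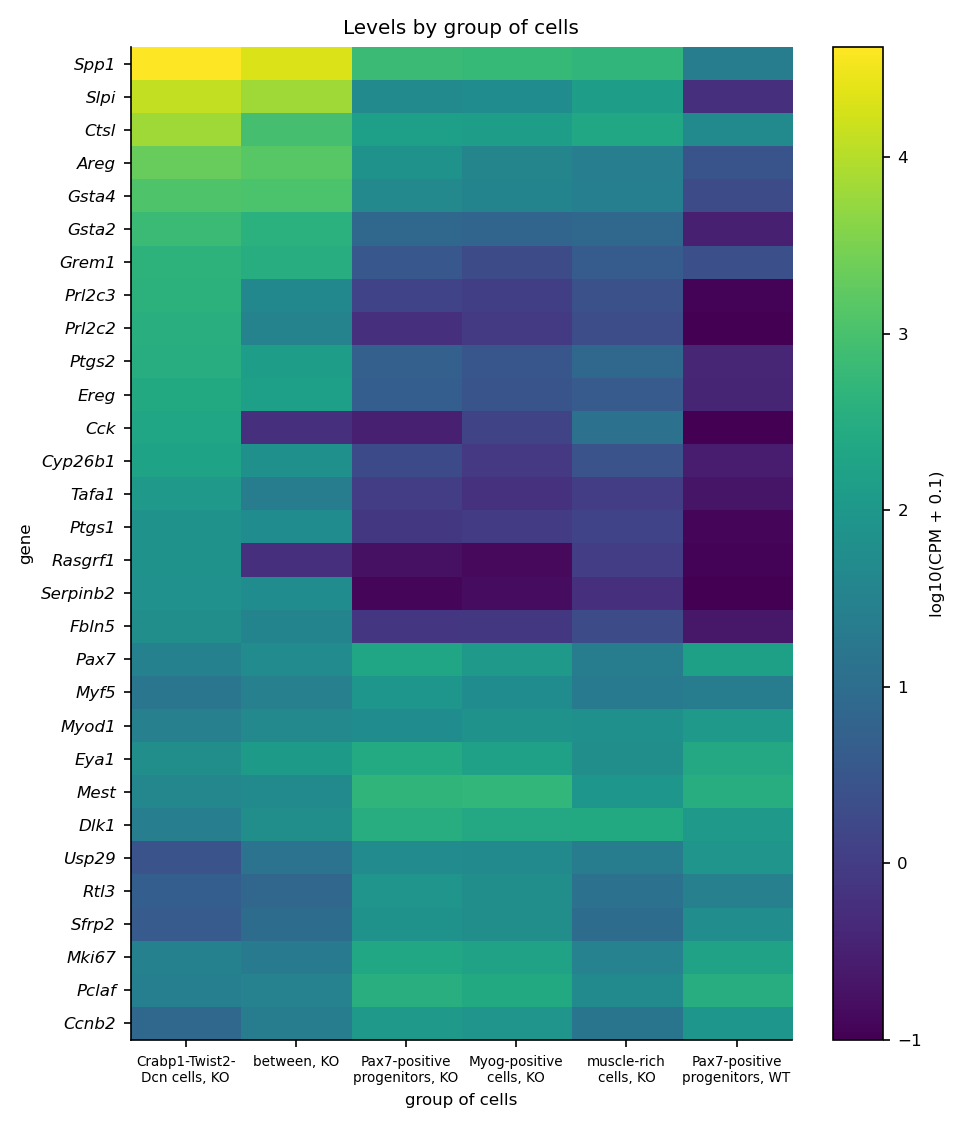
Colour gives log10 of CPM plus 0.1 for 30 genes in 6 groups of cells, the Crabp1-Twist2-Dcn (CTD) cells at the left and the MyoD-WT progenitors at the right. Spp1 is at 42047 CPM in the Crabp1-Twist2-Dcn cells, 21740 CPM in the cells between the marker limits and 667 CPM in the MyoD-KO progenitors. Mki67 is lower in the Crabp1-Twist2-Dcn cells than in the MyoD-KO progenitors.

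Genes of DNA replication and mitosis were lower almost throughout. Of 42 S phase genes 0 were higher and 40 lower (median log2 ratio -2.68), and of 52 G2M genes 0 were higher and 49 lower (-2.98). Mki67, a protein of cycling cells, was at 29.3 CPM in the CTD cells and 231 CPM in progenitors, and was detected in 16 of 190 CTD cells and 1851 of 2531 progenitors. Top2a, the topoisomerase of dividing cells, was at 56.4 CPM in the CTD cells and 447 CPM in progenitors. Low levels were not particular to the CTD cells. Progenitors of cluster 7 had Mki67 at 25.4 CPM and Top2a at 72.1 CPM, against 252 and 484 CPM in progenitors of other clusters. Pclaf was at 84.4 CPM in those of cluster 7, 360 CPM in those elsewhere and 26.4 CPM in the CTD cells. S phase and G2M genes summed to 532 and 1530 CPM in muscle-rich cells, and 601 and 1402 CPM in the CTD cells. Of the 12 lowest genes, Spc24, Esco2, Ccnb2, Pttg1, Pclaf and Pbk act in replication, chromosome cohesion or mitosis, and cyclin B2 (Ccnb2) was at 7.78 CPM in the CTD cells and 108 CPM in progenitors. Of 16 genes of cell cycle exit 2 were higher and 3 lower, with a median of -0.26 against -0.22 over all genes. The CDK inhibitors Cdkn2b and Cdkn1a were at 231 and 755 CPM in the CTD cells, against 40.5 and 305 CPM in progenitors, while Cdkn1b was lower at 10.7 CPM in the CTD cells and 32.4 CPM in progenitors. Of 16 p53 targets 14 reached 10 CPM in 1 of the groups. Mdm2 and Cdkn1a were higher and 0 lower (median 0.10), beside 10.3% higher over all 8971 genes.

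Imprinted genes, expressed from 1 parental allele and many of them members of a network active in embryonic growth and muscle stem cells, were lower together. The list was written after values had been seen, so its direction is a description. Of its 27 genes in the files 0 were higher and 17 lower (median -2.90), and Usp29 had the lowest ratio of the 12 lowest genes. Rtl3, the next lowest, was counted in the list and among its 17 lower genes, but it is not known to be imprinted. Cdkn1c, an imprinted CDK inhibitor that rises when myoblasts leave the cycle, had a median of 0.25 UMIs per 10000 in the CTD cells and 23.3 in progenitors, and summed to 227 CPM in the CTD cells and 2734 CPM in progenitors. Peg3 was at 70.8 CPM in the CTD cells and 834 CPM in progenitors, Mest at 39.1 CPM in the CTD cells and 475 CPM in progenitors, and Dlk1 at 25.4 CPM in the CTD cells and 316 CPM in progenitors. The ratios of these 4 genes lay close to each other, at 0.0829, 0.0849, 0.0823 and 0.0804 in this order. Grb10, another imprinted gene, was less low at 124 CPM in the CTD cells and 454 CPM in progenitors. Rasgrf1, imprinted in mice but outside this list, was higher, as given above.

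The members differed among themselves. Of the 75 cells with a Pax7 UMI 24 were in cluster 7, and of the 115 without one 6 were. Mki67 was at 67.9 CPM in the CTD cells with a Pax7 UMI and 0.19 CPM in those without, Top2a at 127 CPM with and 3.22 CPM without one, and Mest at 84.7 CPM with and 4.74 CPM without. Cdkn1c was at 488 CPM with and 29.8 CPM without a Pax7 UMI, while Spp1 was at 37683 CPM with and 45341 CPM without one, and Slpi at 10194 CPM with and 14330 CPM without. The 30 members of cluster 7 had Pax7 at 119 CPM, Mki67 at 137 CPM and Cdkn1c at 739 CPM, against 10.9, 1.59 and 64.4 CPM in the 157 members of cluster 11. Crabp1, Slpi and Spp1 were at 842, 5998 and 18854 CPM in the members of cluster 7 and 4063, 14075 and 47434 CPM in those of cluster 11. The 270 progenitors of cluster 7 had Spp1 at 3709 CPM, Slpi at 305 CPM and Areg at 401 CPM, against 364, 19.7 and 44.5 CPM in the progenitors of other clusters, with Crabp1 at 1.61 CPM inside and 1.81 CPM outside cluster 7. Without the cells that the doublet caller marked, 959 genes were higher and 1464 lower, and with the members of cluster 11 only, 981 were higher and 1602 lower.

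Some genes followed the marker level and others did not. The cells were divided at 10 and 30 marker UMIs per 10000, limits chosen after the data were seen, which gave 57, 41 and 92 cells from low to high. Ctsl was at 2319, 5007 and 9219 CPM from the lowest to the highest class, and Prl2c2 at 125, 244 and 482 CPM. Cyp26b1 was at 83.9, 161 and 241 CPM and Il33 at 316, 418 and 736 CPM. Spp1 differed less, at 35588, 41003 and 45715 CPM, and Grem1 stayed at 398, 440 and 453 CPM. S100a4 ran the other way at 1549, 1367 and 977 CPM. Of the lowest class 32 cells were in cluster 11 and 23 in cluster 7, and of the highest class 88 and 4, so the classes also differ in cluster. Across the 190 cells, at 5000 UMIs each, Spearman's rho was 0.60 between Crabp1 and Ctsl, 0.49 between S100a4 and S100a6, 0.39 between Ctsl and Prl2c2 and 0.38 between Spp1 and Slpi, while it was 0.038 between Crabp1 and Slpi. All these cells share 1 library, and the values are a description.

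**Figure D5:**
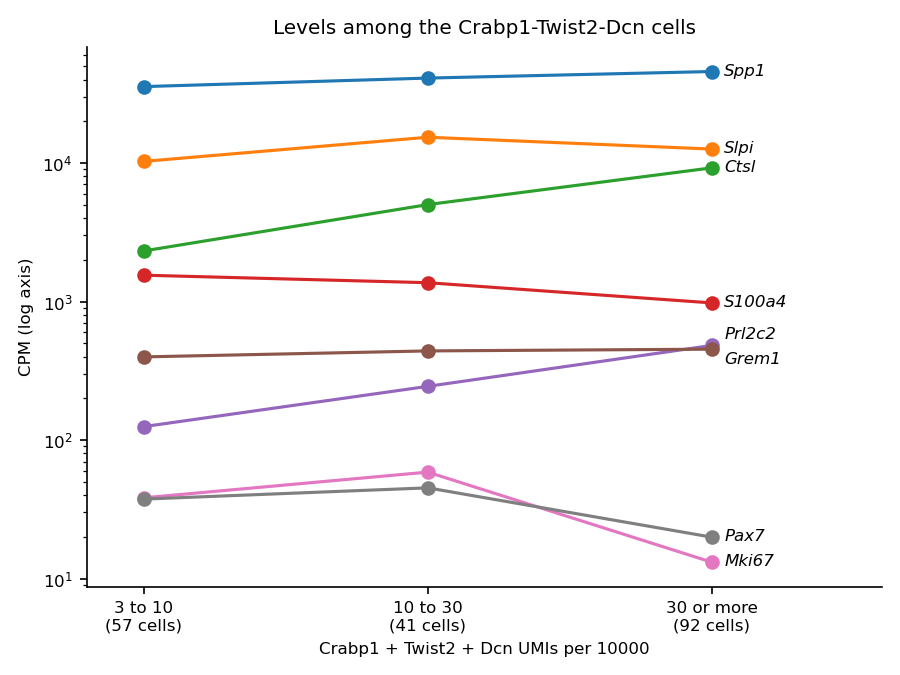
CPM (log axis) of 8 genes in Crabp1-Twist2-Dcn (CTD) cells divided by the summed Crabp1, Twist2 and Dcn UMIs per 10000, from the 57 cells with 3 to 10 to the 92 cells with 30 or more. Ctsl and Prl2c2 are higher in each class with more marker UMIs, at 9219 and 482 CPM in the last class, and S100a4 is lower.

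The cells between the marker limits had many of the same genes at high levels. In these 52 cells Spp1 was at 21740 CPM, Slpi at 6537 CPM, Areg at 1438 CPM and Fn1 at 2654 CPM, although Crabp1 was at 14.6 CPM. By contrast Cck and Rasgrf1 were at 0.50 CPM each in the cells between the limits, from 1 UMI each, and at 198 and 74.3 CPM in the CTD cells. Serpinb2 summed to 54.9 CPM in the cells between the limits, but at the thinned depth it was detected in 1 of these 52 cells, against 18 of the 190 CTD cells. Ctsl at 942 CPM in the cells between the limits lay between its 6511 CPM in the CTD cells and its 150 CPM in progenitors. The Myog-positive and muscle-rich cells of the clone had Spp1 at 592 CPM (Myog-positive) and 510 CPM (muscle-rich), and Slpi at 54.3 CPM (Myog-positive) and 136 CPM (muscle-rich), against 667 and 45.5 CPM in progenitors.

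In the MyoD-WT clone the same rule found 5 of 7318 kept cells (0.0683%, interval 0.0222% to 0.159%), and all 5 had a Pax7 UMI. Their marker level was between 3.08 and 13.9 per 10000. In their 211184 UMIs there were 764 of Spp1, 41 of Slpi, 300 of Ctsl, 22 of Areg and 123 of Crabp1. With 1 library per genotype the clone and the genotype cannot be told apart, and the difference in share between the clones was not tested. The leading genes also differed between the progenitors of the clones: Spp1 was at 667 CPM in MyoD-KO progenitors and 22.6 CPM in MyoD-WT progenitors, and Slpi at 45.5 CPM in MyoD-KO progenitors and 0.51 CPM in MyoD-WT progenitors. Areg was at 76.8 CPM in MyoD-KO progenitors and 2.77 CPM in MyoD-WT progenitors, and S100a4 at 423 CPM in MyoD-KO progenitors and 2.90 CPM in MyoD-WT progenitors.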

How the data were processed

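RNA was measured in 2 single-cell libraries, 1 of a MyoD-KO and 1 of a MyoD-WT clone. The authors deposited unnormalised UMI counts, which Cell Ranger 7.2.0 produced per the file headers, for barcodes already called as cells. The submitters' processing notes list GRCm39 and Seurat and give neither a role. Cells were kept with at least 1000 genes and at most 15% mitochondrial UMIs, which removed 1888 MyoD-KO and 873 MyoD-WT barcodes. Doublets were not removed; Scrublet (scanpy 1.11.5, expected rate 0.06) served as an alternative.

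For each group of cells the UMI counts were added up and scaled to CPM. Ratios carry 95% intervals conditional on the summed count, CPM exact Poisson and shares exact Clopper-Pearson intervals, and a count of 0 is given the limit of 3 counts. A gene was called at 2-fold or more with at least 10 CPM in the higher group. The genes of the rule were left out of the calls, and list medians took genes with a mean of at least 1 CPM. A 3′ tag counts a molecule once whatever its length. Detection shares were taken after thinning to 5000 UMIs, which left out 0 CTD cells, 4 progenitors and 147 muscle-rich cells as too shallow. Clusters used 30 principal components and Leiden resolution 0.8.

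The text names the 12 highest and 12 lowest ratios among genes with at least 50 CPM, without mitochondrial, ribosomal protein, Gm, Rik and Y-linked genes, the markers and myogenic factors, and up to 4 called genes per list and direction. Further genes, among them type VI and IV collagen chains, receptors and single fibroblast genes, were chosen after their values were seen. The cells, the 42 gene lists and the rule were chosen with earlier results of these data known, and 6 more lists (imprinted, prostaglandin, glutathione S-transferase, lysosomal protease, polyamine and FGF ligand genes) were added after values were seen. The calls were tried on simulated Poisson counts of 25906 genes at the summed depths of both groups. Called were 50 of 50 genes set 3-fold higher in the CTD cells, 50 of 50 set 3-fold lower, and 0 of 8318 unchanged ones. The simulation had no variation between cells, so it cannot give the rate of false calls in these data. TMM factors came from edgeR 4.0.16. Promoter windows came from RefSeq tables of GRCm38.p6.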

Additional observations from a re-analysis of the deposited data

Results flagged for a closer look

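Barcodes removed by the filters held a few that met the limits of the rule on marker and muscle genes. Of 1888 removed MyoD-KO barcodes 7, or 0.371% (exact Clopper-Pearson interval 0.149% to 0.762%), met the marker and muscle limits, against 0 of 873 removed MyoD-WT barcodes, which allows up to 0.422%. These barcodes entered no comparison.

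Marker genes were also found in cells rich in muscle RNA. In the MyoD-KO library 15 of the 1261 muscle-rich cells reached the marker minimum of 3 UMIs per 10000, and 11 muscle-rich cells had UMIs of all 3 marker genes, while 0 muscle-rich cells of the MyoD-WT library reached the minimum. The doublet caller marked 66 of the 1261 muscle-rich cells (5.23%), and whether the 15 are single cells was not tested.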

How the results depend on the processing

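No paired analysis was possible because each genotype has 1 library. The share of 3.29% became 2.77% with a marker minimum of 5 per 10000 UMIs, and lay between 3.06% and 3.76% under the 9 other alternatives. With a minimum of 1 CPM in place of 10, 1441 genes were higher and 2317 lower, and with 50 CPM 454 were higher and 496 lower, since the minimum sets how many genes are tested. Under the other alternatives, including 3 added after the data were seen, 927 to 1142 genes were higher and 1041 to 1612 lower, and the 928 higher genes were all among the 1142 under TMM scaling. Of 2758 log2 ratios of the 197 named genes called, over 14 alternatives, 2755 kept their sign. Against all other kept MyoD-KO cells Chrna1 turned to -1.97, Tpm1 to -0.85 and Lef1 to -0.20, and the FGF ligand median to -1.59, and with thinning to 5000 UMIs the adipocyte marker median turned to 0.35; the cause was not tested. Medians near 0 also changed sign for the interferon, Wnt, Hippo and polyamine lists. Values under 10 CPM in the CTD cells rest on fewer than 100 of their 9251094 UMIs, and genes at 0 there could be present up to 0.324 CPM.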

Other observations

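Immediate early genes did not share a direction. Of 21 listed genes 5 were higher in the CTD cells and 3 lower. Ier3, Egr2, Nr4a1, Fosl1 and Egr3 were the higher ones, with Fosl1, an AP-1 subunit, at 117 CPM in the CTD cells and 33.7 CPM in progenitors. Fos, Fosb and Myc were lower, with Fos at 36.1 CPM in the CTD cells and 113 CPM in progenitors.

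Antigen presentation genes were divided too. The class I genes H2-D1 and H2-K1 were at 49.7 and 46.7 CPM in the CTD cells, against 9.51 and 21.9 CPM in progenitors. The immunoproteasome subunits Psmb8 and Psmb9 and the peptide transporter Tap2 were lower, with Tap2 at 6.59 CPM in the CTD cells and 21.6 CPM in progenitors.

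Hox genes, which record body position, gave 0 higher and 4 lower of 34, and the 4 were Hoxa3, Hoxa5, Hoxa7 and Hoxa9, all of the HoxA cluster. Hoxa7 was at 10.1 CPM in the CTD cells and 35.2 CPM in progenitors. Of 22 hypoxia and glycolysis genes 20 reached 10 CPM in 1 of the groups, and 3 were higher and 2 lower. Over all 8971 genes 10.3% were higher and 14.5% lower, and the list median of -0.21 was close to the -0.22 of all genes. Vegfa was at 104 CPM in the CTD cells and 33.5 CPM in progenitors, and Car9 at 3.57 CPM in the CTD cells and 28.9 CPM in progenitors. Of 22 Wnt targets and feedback genes 2 were higher and 4 lower, among the lower ones Lgr5 at 5.62 CPM in the CTD cells and 40.7 CPM in progenitors.

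Sarcomere genes outside the rule were mostly uncalled, with 1 of 30 higher and 3 lower. Tpm1 was the higher one at 628 CPM in the CTD cells and 245 CPM in progenitors. Igfbp6, which binds IGF2, was at 295 CPM in the CTD cells and 58.2 CPM in progenitors, and Igf2 itself at 2.27 CPM in the CTD cells and 12.6 CPM in progenitors.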
